A study of Mus musculus with 9 samples.

Results

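The fibroblast growth factor (FGF) receptors and the feedback genes of their pathway were compared over 3 structures of the embryonic mouse kidney. The genes were the receptors Fgfr1, Fgfr2, Fgfr3 and Fgfr4, the ligands Fgf8 and Fgf9, the Sprouty genes Spry1, Spry2 and Spry4, and the phosphatase gene Dusp6. All probe sets whose platform annotation gave exactly 1 of these symbols were taken, which made 19 probe sets of 10 genes, out of 22626 probe sets of the array that are not controls and 12393 genes with a symbol of their own. Each structure had 3 Affymetrix MOE430A arrays: the s-shaped body, the later folded stage of the nephron, where the future glomerulus and tubule segments first appear, the renal vesicle, the first epithelial body of a nephron, and the collecting duct, the branched drainage epithelium that grows out of the ureteric bud. All samples came from wild-type embryos of strain 129 at E14.5, which is Theiler stage 22, with the sex given as unknown. Each s-shaped body and each renal vesicle sample was a pool of 20 structures dissected by their shape, whereas the collecting duct samples have a pool size of 1. Per the labels each replicate was a separate minimally pooled sample, and its RNA passed through 2 rounds of T7 amplification.

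FGF ligands bind their receptors together with heparan sulphate, and the activated receptor tyrosine kinase signals through adaptor proteins, Ras and the MAP kinases ERK. ERK activity switches on its own inhibitors, among them the Sprouty proteins, which damp receptor tyrosine kinase signalling, and DUSP6, a phosphatase that takes the activating phosphates off ERK. In the mouse kidney Fgf8 is needed for nephrons to form from the renal vesicle, Fgf9 and Fgf20 keep nephron progenitors, Fgfr2 in the ureteric bud is needed for normal branching, and Spry1 restrains the GDNF and RET signal that drives ureteric bud outgrowth.

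The structures carried the markers of their labels. Summed intensity of 5 podocyte genes was 35375 to 42248 in s-shaped bodies, 2372 to 8300 in renal vesicles and 495 to 569 in collecting ducts. Summed intensity of 7 nephron induction genes was 3951 to 4267 in s-shaped bodies, 22242 to 23451 in renal vesicles and 2982 to 3584 in collecting ducts. For 10 collecting duct trunk genes the sums were 1166 to 1321, 2361 to 13340 and 46108 to 61907 in the same order of structures. Correlations between arrays over the probe sets tested ran from 0.934 to 0.981 within a structure and from 0.791 to 0.879 between structures. Podxl, a podocyte gene, had an intensity of 3018 in renal vesicle replicate 3, against 248 and 247 in replicates 1 and 2, and the embryonic globin gene Hbb-y had 2313 in collecting duct replicate 2, against 1.48 and 5.3 in replicates 1 and 3. Leaving out 1 of these 2 arrays ended the calls of Fgfr4, Spry2 and Dusp6 described further on, and no call of Fgfr1, Fgfr2, Fgfr3 or Spry1.

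The s-shaped body samples also held markers of cells that the label does not name. The sums over 9 interstitial genes were 20655 to 27510 in s-shaped bodies, 1471 to 2957 in renal vesicles and 566 to 844 in collecting ducts. Of the 7 tested, 6 were higher in s-shaped bodies than in renal vesicles, against 18.1% of all genes tested by their brightest probe set. The sums over 7 endothelial genes were 7079 to 8074, 301 to 579 and 237 to 396, and over 4 erythroid genes 18117 to 21772, 430 to 2560 and 79.8 to 2435, in the same order. For 5 macrophage genes they were 3221 to 3784, 367 to 661 and 680 to 799. The ratio of the 3' to the 5' Gapdh control probe sets, which rises as the amplified RNA gets shorter, was 20.03 to 32.43 in s-shaped bodies, 11.95 to 14.54 in renal vesicles and 11.62 to 18.56 in collecting ducts. The same ratio for Actb was 30.06 to 50.89 in s-shaped bodies, 32.24 to 41.23 in renal vesicles and 34.12 to 42.49 in collecting ducts. It did not set the s-shaped bodies apart. The marker sums and the Gapdh ratio moved with every difference that involves the s-shaped body, and their part in the results was not tested. The collecting duct samples in turn held urothelial markers, with sums over 4 genes of 299 to 500 in s-shaped bodies, 361 to 476 in renal vesicles and 2538 to 3961 in collecting ducts. Of the 3 tested, 2 were lower in each nephron stage than in collecting ducts, against 15.2% of all genes for s-shaped body and 15.3% for renal vesicle. This moved with every difference against collecting duct, and its part was likewise not tested. The collecting duct trunk sums given above were also higher in renal vesicles, at 2361 to 13340, than in s-shaped bodies, at 1166 to 1321. Of the 9 trunk genes tested, 4 were lower and 1 higher in s-shaped bodies than in renal vesicles. Among all genes tested by their brightest probe set, 17.3% were lower and 18.1% higher. The part of these duct markers in differences between the nephron stages was not tested. In pooled tissue, fewer cells that express a gene and less RNA per cell cannot be told apart.

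Values are given first as deposited intensity, a linear brightness per probe set that compares arrays but not probe sets. Differences are on the log2 scale after a pseudocount of 26 and quantile normalization, and a difference is called where limma's adjusted p is below 0.05 over all 12588 probe sets tested. To be tested, a probe set had to lie above the median of its own array in at least 3 arrays. That kept 11 of the 19 probe sets and 8 of the 10 genes. Of the 19, 5 lay above the median on every array (Fgfr2 1433489_s_at, Fgfr3 1421841_at, Spry1, Spry2 1436584_at and Dusp6) and 7 on none (Fgfr1 1425911_a_at, Fgfr3 1425796_a_at, Fgfr4 1427776_a_at, 1427777_x_at and 1427845_at, Fgf8 and Spry4 1422020_at). The other 7 lay above it on 2 to 7 arrays. The probe sets just inside the limit were Fgfr2 1420847_a_at and Fgf9, each above the median on 3 arrays, and the one just outside was Spry4 1422021_at, on 2.

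**Figure D1:**
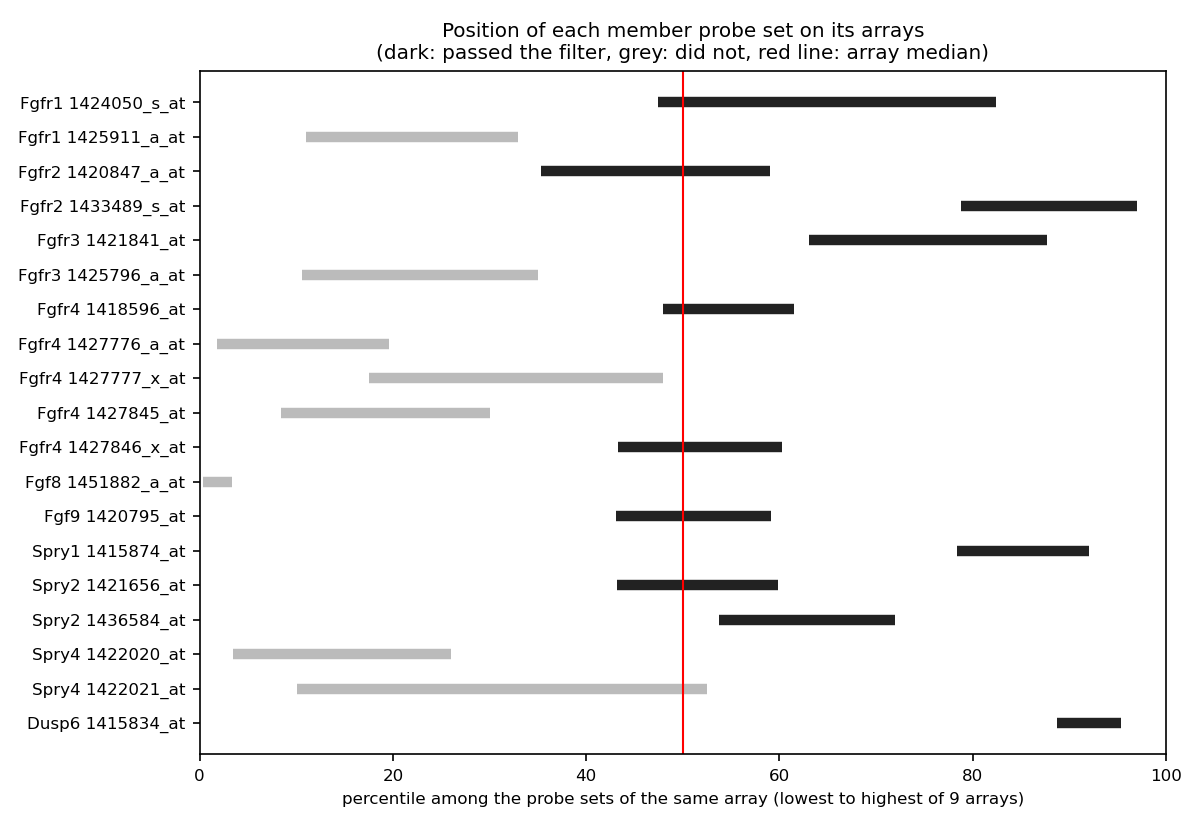
Percentile of each of the 19 probe sets among all probe sets of the same array (0 to 100), drawn as a bar over the lowest to the highest of the 9 arrays, dark where the probe set was tested and grey where it was not, with a red line at the array median. Fgf8 lies between 0.365 and 3.36 on all 9 arrays, Dusp6 between 88.7 and 95.3, and Fgfr1 1424050_s_at crosses the median, at its lowest at 47.4.

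The receptors divided into a gene that was higher in both nephron stages than in collecting duct, Fgfr1, and a pair that was lower in both, Fgfr2 and Fgfr3. Fgfr4 differed in 1 comparison only, and its probe sets gave opposite signs. All 3 of Fgfr1, Fgfr2 and Fgfr3 were lower in s-shaped bodies than in renal vesicles.

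Fgfr1 encodes the FGF receptor of the mesenchyme and of nephron progenitors. The probe set 1424050_s_at had intensities of 451, 534 and 464 in the s-shaped bodies, 783, 698 and 684 in the renal vesicles and 114, 122 and 152 in the collecting ducts. The groups did not overlap in any pair, and the collecting duct arrays sat at or near their array medians, with 1 of 3 above. Means were 482.9 ± 44.4 in s-shaped bodies, 721.5 ± 53.6 in renal vesicles and 129.4 ± 19.9 in collecting ducts (SD, n = 3 each). The log2 difference between s-shaped body and collecting duct was 1.74 (SE 0.16, limma adjusted p = 4.5e-06), a 3.33-fold higher value. Between renal vesicle and collecting duct it was 2.37 (SE 0.16, adjusted p = 6.8e-07), 5.18-fold higher. Against the renal vesicle the s-shaped body was 1.55-fold lower, with a log2 difference of -0.64 (SE 0.16, adjusted p = 0.0088). The order was therefore renal vesicle, s-shaped body, collecting duct, and each neighbouring pair differed beyond its spread. The sums over 6 cap mesenchyme genes were 494 to 534 in s-shaped bodies, 1216 to 1668 in renal vesicles and 492 to 660 in collecting ducts, and their part in the Fgfr1 differences was not tested. The other Fgfr1 probe set, 1425911_a_at, lay between 10.9 and 70.2 on the 9 arrays, always under the median, and was not tested.

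Fgfr2 encodes the receptor best known from the ureteric epithelium, where its epithelial splice form binds FGF7 and FGF10. The probe set 1433489_s_at had intensities of 839, 638 and 877 in the s-shaped bodies, 1553, 1713 and 2355 in the renal vesicles and 4302, 5097 and 3712 in the collecting ducts. No 2 groups overlapped, and the values fell into the order collecting duct, renal vesicle, s-shaped body. The s-shaped body was 5.67-fold lower than collecting duct, with a log2 difference of -2.50 (SE 0.21, adjusted p = 2.3e-06). The renal vesicle was 2.43-fold lower than collecting duct (-1.28 on the log2 scale, SE 0.21, adjusted p = 0.00076), and the s-shaped body 2.33-fold lower than renal vesicle (-1.22, SE 0.21, adjusted p = 0.00091). The second Fgfr2 probe set, 1420847_a_at, was far closer to the array median, at 119, 66.4 and 114 in s-shaped bodies, 126, 81.2 and 111 in renal vesicles and 200, 131 and 181 in collecting ducts. Its s-shaped body values were all below the collecting duct values, by a log2 difference of -0.63 (SE 0.25) that did not pass the test (adjusted p = 0.083), and its other differences of -0.41 and -0.22 did not pass either. The arrays do not separate the splice forms of the receptors here, because no annotation of the probes by exon was used.

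Fgfr3 encodes another receptor of the family, expressed in epithelia and known for restraining bone growth. The probe set 1421841_at had intensities of 445, 349 and 256 in the s-shaped bodies, 550, 619 and 668 in the renal vesicles and 1292, 1285 and 1119 in the collecting ducts. The groups did not overlap, and their order was that of Fgfr2. The s-shaped body was 3.50-fold lower than collecting duct (-1.81 on the log2 scale, SE 0.20, adjusted p = 2.5e-05), and the renal vesicle was 1.91-fold lower (-0.93, SE 0.20, adjusted p = 0.0048). The s-shaped body was 1.84-fold lower than the renal vesicle, with a log2 difference of -0.88 (SE 0.20, adjusted p = 0.0056). The other probe set, 1425796_a_at, lay between 9.32 and 70.3 on the 9 arrays, under the median on each.

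Fgfr4 encodes the receptor that in the adult acts mostly in liver, with FGF15 as its ligand from the gut. The probe set 1418596_at had intensities of 188, 140 and 175 in the s-shaped bodies, 162, 199 and 213 in the renal vesicles and 125, 125 and 134 in the collecting ducts, where all 3 arrays were under their median. It was therefore tested because it was high in the nephron stages. The renal vesicle was higher than the collecting duct by a log2 difference of 0.65 (SE 0.18, adjusted p = 0.019), or 1.57-fold, and the s-shaped body by 0.34 (SE 0.18), which did not pass (adjusted p = 0.19). The call in the renal vesicle was lost without renal vesicle replicate 3 (log2 difference 0.59, adjusted p = 0.061), without renal vesicle replicate 2 (0.63, adjusted p = 0.063), without collecting duct replicate 2 (0.63, adjusted p = 0.060) and with no normalization beyond the deposited scaling (0.49, adjusted p = 0.075). The second tested probe set, 1427846_x_at, whose suffix marks probes that can bind related transcripts, had 165, 102 and 178 in s-shaped bodies, 100, 112 and 88.8 in renal vesicles and 152, 161 and 224 in collecting ducts. Here the renal vesicle lay below the collecting duct by -0.54 (SE 0.22, adjusted p = 0.091), the opposite sign, and with no further normalization it was called (-0.69, adjusted p = 0.045), so no direction is given for Fgfr4 as a gene.

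**Figure D2:**
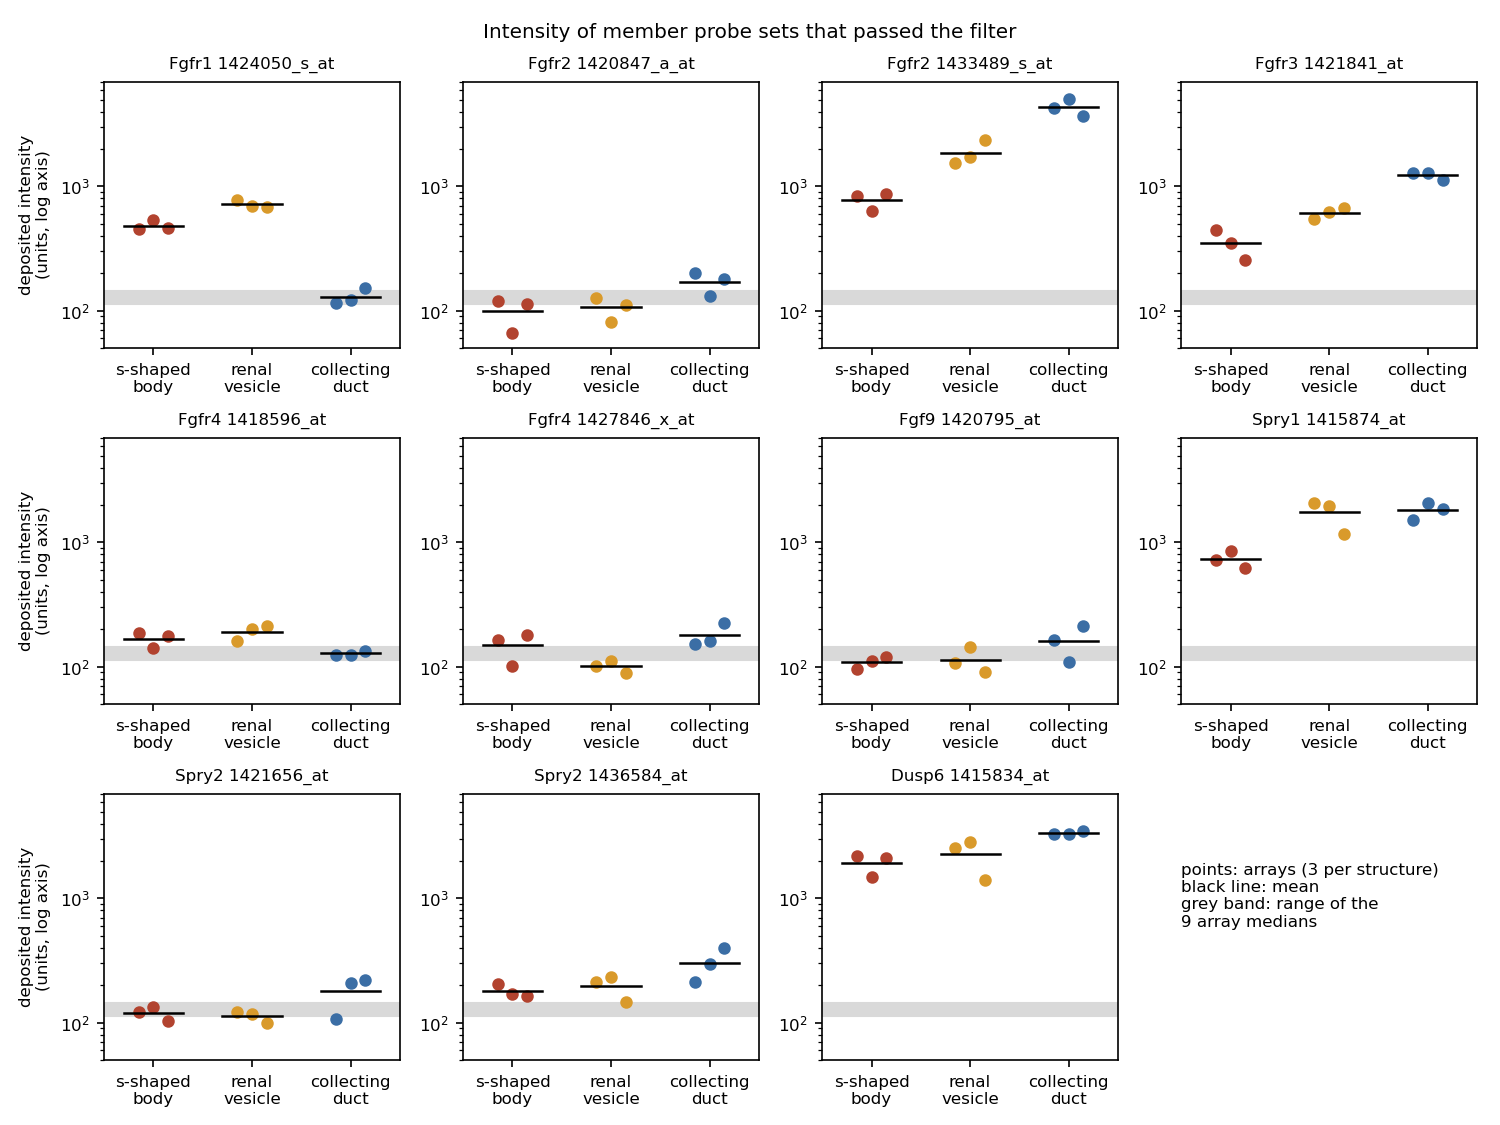
Deposited intensity (log axis) of the 11 tested probe sets, with 1 point per array, the group mean as a black line and the range of the 9 array medians as a grey band. Fgfr1 is highest in the 3 renal vesicle arrays, Fgfr2 and Fgfr3 in the 3 collecting duct arrays, and Spry1 is lowest in the 3 s-shaped body arrays.

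Since Fgfr2 and Fgfr3 ran through the structures in the same order, the sequence before their transcript starts is shown, with that of Spry1 and Dusp6, the feedback genes measured by 1 probe set that lay above the median on every array. RefSeq windows of build GRCm38.p6 were read for 7 of the 10 genes (Fgfr2, Fgfr3, Fgfr4, Fgf9, Spry1, Spry2 and Dusp6). Fgfr1 and Fgf8 had no window, and Spry4 was left out of the search. The 250 bases upstream of the start are printed 5' to 3' on the strand of the gene. Capitals mark CAGGAAG, 1 of 2 forms of the core bound by ETS factors, which ERK activates. The 250 bases lie at chr7:130266809-130267058 on the minus strand for Fgfr2, at chr5:33721474-33721723 and chr5:33722056-33722305 on the plus strand for the 2 starts of Fgfr3, at chr3:37639697-37639946 on the plus strand for Spry1 and at chr10:99262981-99263230 on the plus strand for Dusp6.
Fgfr2: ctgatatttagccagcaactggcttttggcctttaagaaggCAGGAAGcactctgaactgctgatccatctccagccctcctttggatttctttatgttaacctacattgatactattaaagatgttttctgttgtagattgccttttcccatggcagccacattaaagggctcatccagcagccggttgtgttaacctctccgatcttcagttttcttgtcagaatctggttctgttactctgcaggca
Fgfr3, first start: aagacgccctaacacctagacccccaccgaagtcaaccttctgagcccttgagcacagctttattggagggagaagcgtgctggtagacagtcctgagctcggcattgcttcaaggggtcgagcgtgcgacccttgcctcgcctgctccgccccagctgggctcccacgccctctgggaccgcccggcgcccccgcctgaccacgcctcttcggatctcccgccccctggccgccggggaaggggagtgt
Fgfr3, second start: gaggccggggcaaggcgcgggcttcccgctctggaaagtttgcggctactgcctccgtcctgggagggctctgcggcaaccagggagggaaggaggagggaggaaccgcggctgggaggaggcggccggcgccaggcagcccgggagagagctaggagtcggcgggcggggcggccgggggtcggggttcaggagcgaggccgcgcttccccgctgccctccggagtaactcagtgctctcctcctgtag
Spry1: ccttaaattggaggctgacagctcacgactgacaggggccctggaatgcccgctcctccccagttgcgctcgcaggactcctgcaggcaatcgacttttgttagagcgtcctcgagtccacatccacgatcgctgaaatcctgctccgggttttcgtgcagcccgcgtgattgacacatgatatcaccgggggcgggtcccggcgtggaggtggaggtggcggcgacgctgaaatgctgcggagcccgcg
Dusp6: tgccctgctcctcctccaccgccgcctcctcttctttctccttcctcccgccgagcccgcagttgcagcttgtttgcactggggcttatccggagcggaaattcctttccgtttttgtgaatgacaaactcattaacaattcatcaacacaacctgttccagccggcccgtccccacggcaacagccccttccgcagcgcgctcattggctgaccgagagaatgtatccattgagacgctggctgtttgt

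The windows differ in base composition. The Fgfr2 window is 44.0% G and C with 2 CpG dinucleotides, whereas the Fgfr3 windows are 66.8% and 72.8% with 19 and 24, the Spry1 window 62.4% with 23 and the Dusp6 window 56.4% with 16, against medians of 52.4% and 6 over all 32817 windows of the table. CCGGAAG and CAGGAAG were searched on both strands of the whole windows of 300 bases, 250 before the start and 50 after it. They differ in 1 letter, so no position matches both, and 8.86% of all windows hold the first and 13.3% the second. Of the 8 windows of the 7 genes, 1 holds a match, a CAGGAAG on the strand of Fgfr2 that begins 209 bases before its start. A match is a description of these letters and does not show a bound site.

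Of the 2 ligands, Fgf8 lay at the bottom of every array and Fgf9 around the array median, at percentiles of 43.1 to 59.2. Fgf8, which the renal vesicle needs to survive and to express Lhx1, had intensities of 2.14, 1.2 and 1.27 in the s-shaped bodies, 2.08, 3.30 and 1.86 in the renal vesicles and 1.91, 1.47 and 2.00 in the collecting ducts. These are within the lowest 3.36% of every array, and the probe set was not tested. A single probe set this dim cannot show whether the Fgf8 transcript was present or absent. Lhx1 itself had 1930, 2129 and 1727 in the same renal vesicle arrays, against 33.2 or less in the collecting ducts. Fgf9, made by the ureteric bud and by nephron progenitors, had 95.5, 110 and 119 in s-shaped bodies, 107, 143 and 90.9 in renal vesicles and 163, 110 and 214 in collecting ducts. The groups overlapped, and the log2 differences of -0.44 for s-shaped body against collecting duct, -0.26 for renal vesicle against collecting duct and -0.19 for s-shaped body against renal vesicle did not pass the test (adjusted p = 0.21, 0.47 and 0.60).

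Among the feedback genes, Spry1 was lower in s-shaped bodies than in both other structures. Spry2 and Dusp6 were lower in s-shaped bodies than in collecting ducts by smaller amounts that depended on single arrays.

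Spry1, the Sprouty gene that limits RET signalling in the ureteric bud, had intensities of 722, 859 and 620 in the s-shaped bodies, 2083, 1967 and 1179 in the renal vesicles and 1527, 2071 and 1868 in the collecting ducts. All s-shaped body arrays lay below all others, while renal vesicles and collecting ducts overlapped. The s-shaped body was 2.5-fold lower than collecting duct (log2 difference -1.32, SE 0.23, adjusted p = 0.00085) and 2.31-fold lower than renal vesicle (log2 difference -1.21, SE 0.23, adjusted p = 0.0017). The renal vesicle and the collecting duct differed by -0.12 (SE 0.23, adjusted p = 0.75), and without renal vesicle replicate 3, the lowest of its group, by 0.12 (adjusted p = 0.71). Renal vesicle and collecting duct therefore had no order for Spry1.

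Spry2 encodes another Sprouty protein, present in many branching epithelia. The brighter probe set, 1436584_at, had 203, 170 and 163 in the s-shaped bodies, 211, 232 and 147 in the renal vesicles and 212, 299 and 399 in the collecting ducts. The s-shaped body lay below the collecting duct without overlap, by a log2 difference of -0.69 (SE 0.24, adjusted p = 0.0496), or 1.61-fold. That call was lost in 17 of 22 alternatives, among them omission of s-shaped body replicate 3, with a difference of -0.62 (adjusted p = 0.15), and of the third collecting duct array, with -0.48 (adjusted p = 0.14). The other probe set, 1421656_at, had 122, 134 and 103 in s-shaped bodies, 121, 117 and 99.3 in renal vesicles and 108, 208 and 220 in collecting ducts, with collecting duct replicate 1 among the nephron values. Its difference of -0.47 (SE 0.24) between s-shaped body and collecting duct did not pass (adjusted p = 0.18), and without that collecting duct array it was -0.71 (adjusted p = 0.035). Neither probe set passed between renal vesicle and collecting duct or between s-shaped body and renal vesicle.

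Spry4, the remaining Sprouty gene measured, was under the array median on 7 of 9 arrays at its brighter probe set, 1422021_at, with 148, 132 and 127 in the s-shaped bodies, 37.3, 59.7 and 10.5 in the renal vesicles and 13.9, 11.9 and 31.4 in the collecting ducts. All 3 s-shaped body arrays lay above all others. The probe set was left out by the filter on dim values. When every probe set was tested, the log2 difference was 1.87 between s-shaped body and collecting duct (SE 0.30, adjusted p = 0.0015), 1.34 between s-shaped body and renal vesicle (SE 0.30, adjusted p = 0.011) and 0.54 between renal vesicle and collecting duct (SE 0.30, adjusted p = 0.30). Its second probe set, 1422020_at, lay between 4.22 and 34.6 on the 9 arrays, and the s-shaped bodies there, at 6.99, 7.25 and 4.22, were not above the renal vesicles, at 34.6, 5.84 and 8.66, or the collecting ducts, at 4.64, 11.3 and 11.

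Dusp6, the ERK phosphatase, had intensities of 2185, 1501 and 2134 in the s-shaped bodies, 2536, 2866 and 1396 in the renal vesicles and 3332, 3289 and 3464 in the collecting ducts. Every collecting duct array lay above every nephron array, and the nephron stages overlapped. Means were 1940 ± 381 in s-shaped bodies, 2266 ± 772 in renal vesicles and 3362 ± 91.2 in collecting ducts (SD, n = 3 each). The s-shaped body was 1.74-fold lower than collecting duct (-0.80 on the log2 scale, SE 0.24, adjusted p = 0.028), a call lost without s-shaped body replicate 2 (-0.62, adjusted p = 0.13), without any 1 of the collecting duct arrays (adjusted p = 0.052, 0.072 and 0.052 in order of replicate), and when the filter was dropped (adjusted p = 0.051). The renal vesicle was lower by -0.65 (SE 0.24), which did not pass (adjusted p = 0.068) but did without renal vesicle replicate 2 (-0.85, adjusted p = 0.039). The nephron stages differed by -0.15 (SE 0.24, adjusted p = 0.68), with the sign turned when renal vesicle replicate 2 or s-shaped body replicate 2 was left out.

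**Figure D3:**
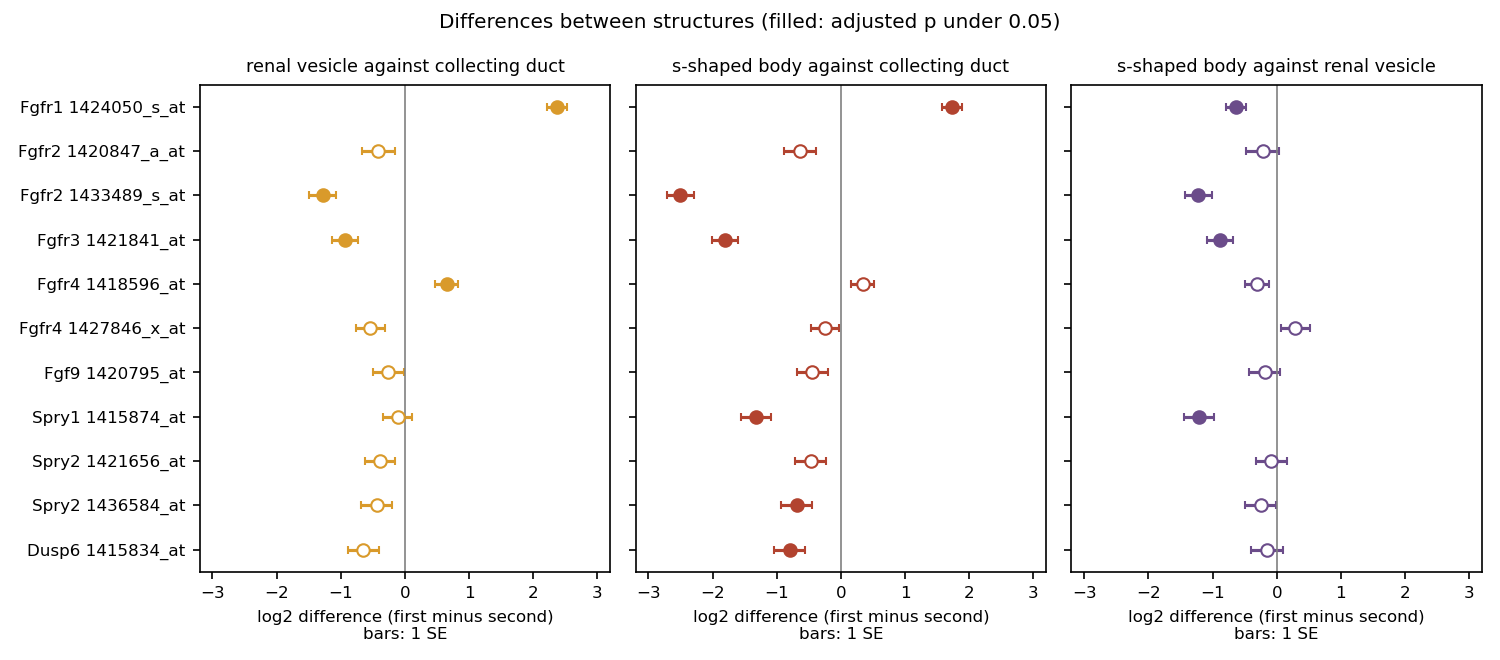
Log2 difference and SE (limma, 9 arrays) of the 11 tested probe sets in the 3 comparisons, with filled points where the adjusted p is below 0.05. Fgfr1 stands at 1.74 and 2.37 against collecting duct, Fgfr2 1433489_s_at at -2.50 and -1.28, and no probe set is called higher in s-shaped bodies than in renal vesicles.

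Counted over the 11 tested probe sets, 1 was higher and 5 were lower in s-shaped bodies than in collecting ducts, against 28.6% called in either direction, 14.7% higher and 13.9% lower, among all probe sets tested. In 8 the groups did not overlap, against 40.9% of all, and the median log2 difference was -0.63, against -0.04 over all probe sets tested. Between renal vesicle and collecting duct, 2 were higher and 2 lower, where 28.4% of all were called, 14.8% higher and 13.5% lower, and 6 did not overlap, where 41.3% of all did not. The median was -0.41, against 0.03 over all. Between s-shaped body and renal vesicle none was higher and 4 were lower, where 33.6% of all were called, 16.3% higher and 17.4% lower, and 4 did not overlap, where 51.3% of all did not, with a median of -0.25 against -0.06. The comparisons share arrays and the genes have several probe sets, so these counts are not independent of each other. In all, 7 of the 10 genes had a probe set called in at least 1 comparison. The shares of all probe sets above are each for a single comparison. No share of all genes called in at least 1 comparison is given, so this count has no background to be set against. Fgf9 was tested and had no called probe set, while Fgf8 and Spry4 had no tested probe set and could not be called. Spry4 1422021_at passed in both comparisons of the s-shaped body only when every probe set was tested, as given above.

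The rest of the pathway was read from a list of 80 ligands, co-receptors, heparan sulphate genes, signal relays, targets and inhibitors. Of these, 63 were on the array and 34 had a tested probe set, the brightest being used for each gene. Between s-shaped body and collecting duct 11 were higher and 7 lower, or 52.9% called, against 31.6% of all 7984 genes tested in this way (16.4% higher and 15.2% lower). Between renal vesicle and collecting duct 10 were higher and 7 lower (50%, against 30.3% of all, 15% higher and 15.3% lower), and between s-shaped body and renal vesicle 8 were higher and 7 lower (44.1%, against 35.5% of all, 18.1% higher and 17.3% lower). The last split was 5 higher and 7 lower with median centring and without s-shaped body replicate 3, and 7 higher and 10 lower with no filter. The median log2 differences of the list were 0.23, 0.16 and 0.14 in the same order of comparisons.

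Heparan sulphate genes made up the largest part of these calls. All 13 on the array were tested. In s-shaped bodies 9 were higher and 3 lower than in collecting ducts, against 16.4% and 15.2% of all genes. In renal vesicles 6 were higher and 4 lower than in collecting ducts, against 15% and 15.3% of all. Between s-shaped body and renal vesicle 4 were higher and 3 lower, against 18.1% and 17.3% of all. Sdc2, a syndecan carrying heparan sulphate at the cell surface, had intensities of 3387, 3122 and 3605 in s-shaped bodies, 590, 601 and 1051 in renal vesicles and 250, 254 and 111 in collecting ducts. Its log2 differences were 4.03 between s-shaped body and collecting duct (SE 0.31, adjusted p = 1.2e-06), 1.87 between renal vesicle and collecting duct (SE 0.31, adjusted p = 0.00084) and 2.16 between s-shaped body and renal vesicle (SE 0.31, adjusted p = 0.00025). Its other tested probe set, 1448545_at, was called in the same comparisons with smaller differences of 1.85, 0.68 and 1.17. The glypican gene Gpc1 had the same order, with log2 differences of 3.09, 1.30 and 1.79 in those comparisons (SE 0.32 each), and renal vesicle replicate 3, at 1165, stood above its other replicates at 409 and 511. Without that array and collecting duct replicate 2 together, Gpc1 lost its call between renal vesicle and collecting duct (0.77, adjusted p = 0.084). Gpc3, a glypican whose loss causes overgrowth and dysplastic kidneys, was 5.79-fold higher in s-shaped bodies and 4.74-fold higher in renal vesicles than in collecting ducts (log2 differences 2.53 and 2.25, SE 0.18). The s-shaped body values of Sdc2, Gpc1 and Gpc3 stand beside the interstitial and endothelial sums given above, whose part in them was not tested.

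Other heparan sulphate genes moved differently between the stages. Hs6st2, which adds sulphate at the 6-O position, had intensities of 189, 110 and 155 in s-shaped bodies, 555, 757 and 501 in renal vesicles and 65.0, 72.2 and 61.0 in collecting ducts. It was 7.32-fold higher in renal vesicles than in collecting ducts (log2 difference 2.87, SE 0.22, adjusted p = 2.0e-06) and 3.77-fold lower in s-shaped bodies than in renal vesicles (log2 difference -1.92, SE 0.22, adjusted p = 5.0e-05). It lay above the array median on 5 arrays, none of them collecting duct, so it was tested because it was high in the nephron stages. The first of these differences was 2.12 with a pseudocount of 104 and 3.2 with one of 6.5. Its relative Hs6st1 was lower in both nephron stages than in collecting ducts, by -0.85 in s-shaped bodies and -0.82 in renal vesicles (SE 0.20, adjusted p = 0.0067 and 0.0088), and the renal vesicle call was lost without renal vesicle replicate 3 and collecting duct replicate 2 together (-0.77, adjusted p = 0.069). Glce, the epimerase of the heparan sulphate chain, followed the order of Fgfr2: it had 623, 558 and 609 in s-shaped bodies, 1027, 858 and 939 in renal vesicles and 2212, 2183 and 1556 in collecting ducts, and was lower in all 3 comparisons (log2 differences -1.71 for s-shaped body and -1.01 for renal vesicle against collecting duct, and -0.70 for s-shaped body against renal vesicle). Sdc4 was lower in renal vesicles than in collecting ducts (log2 difference -1.23, SE 0.18, adjusted p = 0.00039) and higher in s-shaped bodies than in renal vesicles (1.89, SE 0.18, adjusted p = 1.4e-05), and its call between s-shaped body and collecting duct (0.65, SE 0.18) was lost in 4 of the 9 omissions of 1 array and did not pass by the other probe set, 1448793_a_at (0.08, adjusted p = 0.89). Sdc1, the syndecan of epithelia, was lower in s-shaped bodies than in both others (log2 differences -1.35 against collecting duct and -1.51 against renal vesicle, SE 0.27) by 2 of its 3 probe sets, whereas 1415944_at did not pass (-0.62 in both, adjusted p = 0.18 and 0.16). Ext1, a polymerase of the chain, was higher in both nephron stages than in collecting ducts (0.85 and 0.83, SE 0.17), as was the sulphatase gene Sulf2 (0.93 and 0.60, SE 0.21), whose renal vesicle call was lost in 8 of the 9 omissions of 1 array. Further calls were Hs2st1 (0.72 against collecting duct and 0.60 against renal vesicle, SE 0.15) and Gpc4 (1.05 against collecting duct, SE 0.27), both higher in s-shaped bodies, and Ext2, lower in renal vesicles than in collecting ducts (-0.54, SE 0.18, lost in 6 of the 9 omissions). The Hs2st1 call against renal vesicle was lost with median centring (0.42, adjusted p = 0.079) and without s-shaped body replicate 3 (0.53, adjusted p = 0.054), and its other probe sets, 1422739_at and 1450730_at, did not pass there (0.36 and 0.13, adjusted p = 0.18 and 0.65). Those 2 were also called higher in renal vesicles than in collecting ducts (0.80 and 0.61, adjusted p = 0.0089 and 0.039). The brightest Hs2st1 probe set did not pass in that comparison (0.12, adjusted p = 0.61).

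**Figure D4:**
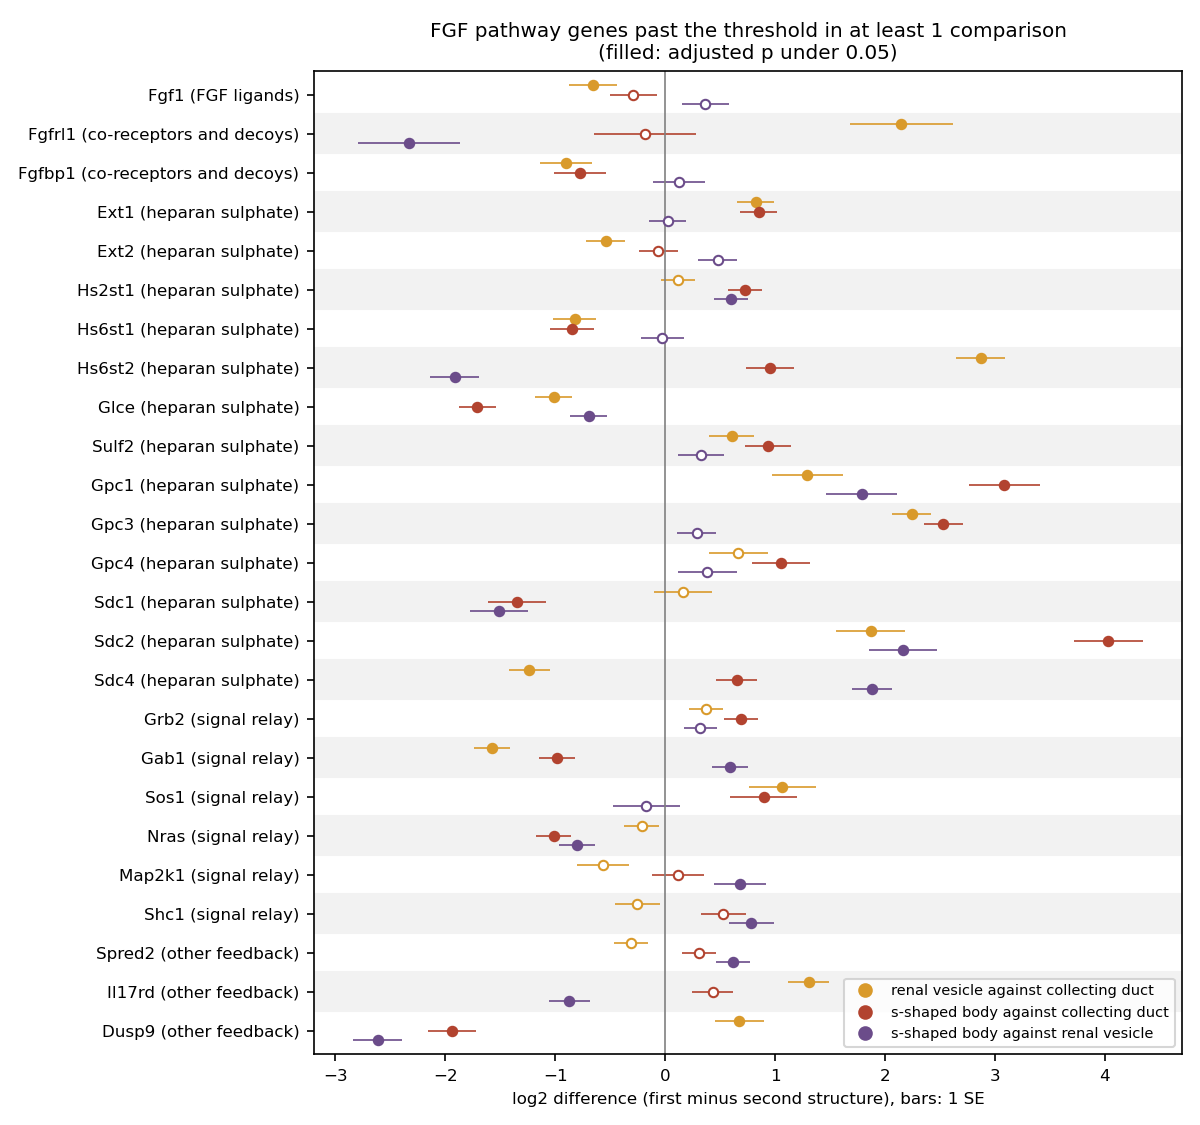
Log2 difference and SE of the 25 genes of the FGF pathway list called in at least 1 comparison, with 1 colour per comparison, the role after each name, and filled points where the adjusted p is below 0.05. The Sdc2 probe set 1417011_at reaches 4.03 between s-shaped body and collecting duct, Hs6st2 2.87 between renal vesicle and collecting duct, and Dusp9 -2.61 between s-shaped body and renal vesicle.

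Among co-receptors and decoys, Fgfrl1 and Fgfbp1 were tested. Fgfrl1 encodes a receptor without a kinase domain that nephron formation requires in the mouse. It had 19.4, 94.4 and 35.2 in s-shaped bodies, 226, 310 and 393 in renal vesicles and 113, 71.3 and 12.6 in collecting ducts, and lay above the array median only on the renal vesicle arrays, so it was tested because it was high there. Its log2 difference was 2.15 between renal vesicle and collecting duct (SE 0.47, adjusted p = 0.0048) and -2.33 between s-shaped body and renal vesicle (SE 0.47, adjusted p = 0.0024), and these were 1.39 and -1.50 with a pseudocount of 104 and 2.62 and -2.79 with one of 6.5. Fgfbp1, which releases FGFs from the matrix, was lower in both nephron stages than in collecting ducts (-0.77 for s-shaped body, adjusted p = 0.027, and -0.90 for renal vesicle, adjusted p = 0.013, SE 0.24). Its s-shaped body call was lost without any 1 of the s-shaped body arrays, and its 3 arrays above the median were the collecting duct arrays.

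Of the 20 other FGF ligand genes, all on the array, 4 had a tested probe set (Fgf1, Fgf4, Fgf13 and Fgf14), and 1 call was made in all 3 comparisons. Fgf1 was lower in renal vesicles than in collecting ducts (log2 difference -0.66, SE 0.21, adjusted p = 0.039), with intensities of 60.8, 109 and 87.2 in renal vesicles and 151, 150 and 202 in collecting ducts, and the call was lost in 7 of the 9 omissions of 1 array. All its renal vesicle values lay under their array medians, so it was tested because it was higher in the other structures. The brightest probe sets of the other ligand genes lay above the array median on at most 1 of 9 arrays.

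In the signal relay 9 genes were tested. Gab1, an adaptor that carries signals of several receptor tyrosine kinases, had 2422, 2780 and 3336 in s-shaped bodies, 1741, 1819 and 2171 in renal vesicles and 5033, 5753 and 5417 in collecting ducts. It was lower in both nephron stages than in collecting ducts, by -0.99 in s-shaped bodies (SE 0.16, adjusted p = 6.0e-04) and -1.57 in renal vesicles (SE 0.16, adjusted p = 2.4e-05). Nras, a Ras gene, was lower in s-shaped bodies than in collecting ducts (-1.01, SE 0.16) and than in renal vesicles (-0.80, SE 0.16), although its probe set 1422688_a_at passed in no comparison. Sos1 encodes the Ras exchange factor. It had 132, 93.4 and 144 in s-shaped bodies, 128, 111 and 137 in renal vesicles and 67.9, 86.2 and 22.3 in collecting ducts. It lay above the array median on 4 arrays, none of them collecting duct, so it was tested because it was high in the nephron stages. Sos1 was called higher in s-shaped bodies and renal vesicles than in collecting ducts (0.90 and 1.07, SE 0.31). The s-shaped body call was lost in 7 of the 9 omissions of 1 array, with the smallest difference without collecting duct replicate 3 (0.52, adjusted p = 0.12). The renal vesicle call was lost in 2, without renal vesicle replicate 1 (1.03, adjusted p = 0.070) or replicate 3 (1.02, adjusted p = 0.059). Grb2 was higher in s-shaped bodies than in collecting ducts (0.69, SE 0.15) by 1 of 2 probe sets. Shc1 (0.78, SE 0.20), Map2k1 (0.68, SE 0.24) and Gab1 (0.59, SE 0.16) were higher in s-shaped bodies than in renal vesicles, and the Map2k1 call was lost in 7 of the 9 omissions of 1 array, that of Gab1 in 3 and that of Shc1 in 1. The Gab1 call there was also lost with median centring (0.41, adjusted p = 0.065), and its other probe set, 1417694_at, did not pass (0.34, adjusted p = 0.23).

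Other feedback inhibitors did not move as 1 group. Il17rd, which encodes the FGF antagonist Sef, had 127, 150 and 174 in s-shaped bodies, 267, 274 and 266 in renal vesicles and 119, 90.1 and 113 in collecting ducts, the last all under their array medians. It was therefore tested because it was high in the nephron stages. It was 2.47-fold higher in renal vesicles than in collecting ducts (log2 difference 1.31, SE 0.19, adjusted p = 0.00032) and 1.83-fold lower in s-shaped bodies than in renal vesicles (-0.87, SE 0.19, adjusted p = 0.0039). Dusp9, another ERK phosphatase, had 52.0, 44.6 and 77.5 in s-shaped bodies, 573, 488 and 341 in renal vesicles and 245, 292 and 343 in collecting ducts. It lay above the array median on 6 arrays, none of them s-shaped body, so it was tested because it was high in the other structures. It was 3.84-fold lower in s-shaped bodies than in collecting ducts and 6.12-fold lower than in renal vesicles (log2 differences -1.94 and -2.61, SE 0.22, adjusted p = 3.1e-05 and 5.3e-06), with its other tested probe sets, 1433844_a_at and 1454737_at, called lower in both as well. With a pseudocount of 104 these differences were -1.29 and -1.85, and with one of 6.5 they were -2.25 and -2.96. Between renal vesicle and collecting duct Dusp9 was called higher (0.67, SE 0.22, adjusted p = 0.041), and this was lost in 5 of the 9 omissions of 1 array. Spred2, a relative of the Sprouty genes, was higher in s-shaped bodies than in renal vesicles (0.62, SE 0.15, adjusted p = 0.0087). Spred1 passed in no comparison by its brightest probe set, while its other one, 1423161_s_at, was higher in renal vesicles than in collecting ducts (1.11, adjusted p = 0.0018) and lower in s-shaped bodies than in renal vesicles (-0.89, adjusted p = 0.0055).

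The ETS genes Etv4 and Etv5, transcriptional targets of FGF and RET signalling at the ureteric tip, had no tested probe set. Etv4 had 18.6, 18.6 and 20.0 in s-shaped bodies, 143, 148 and 25.0 in renal vesicles and 19.6, 18.8 and 25.5 in collecting ducts, so that renal vesicle replicate 3 lay with the other structures. Etv5 did not exceed 112 on any array. Ret itself was between 87.0 and 182 on all 9 arrays, and of the 5 ureteric tip marker genes 2 were tested. Gdnf, the RET ligand, had 54.9, 15.6 and 102 in s-shaped bodies, 242, 189 and 57.6 in renal vesicles and 8.61, 17.1 and 14.0 in collecting ducts, where replicate 3 was again the lowest of the renal vesicles.

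The genes whose pattern over the 9 arrays was most like each receptor were found by Pearson correlation of the normalized log2 values. Since the arrays fall into 3 structures, these correlations mostly describe the order of the structures. For Fgfr1 they were Aldh1a2 (r = 0.990), Hoxa10 (r = 0.990) and Tenm3 (r = 0.988), and for Fgfr3 they were Egfl6 (r = 0.992), Grb7 (r = 0.987) and Grip1 (r = 0.982). For Fgfr2 they were Cep19 (r = 0.983), Slc44a1 (r = 0.979) and Glce (r = 0.977), the last of which is the heparan sulphate epimerase described above. For Spry1 the closest was Nras (r = 0.978), followed by Prdx2 (r = 0.973) and Tfap2c (r = 0.961). The closest gene was Vcam1 for Fgfr4 (r = 0.977), Chrnb2 for Fgf9 (r = 0.948), Cklf for Spry2 (r = 0.968) and Tgs1 for Dusp6 (r = 0.935). Among the members, Fgfr2 and Fgfr3 had r = 0.954, and the tested probe sets of Spry2 had r = 0.882.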

How the data were processed

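Per the labels' protocols, structures were dissected by shape, total RNA was extracted with TRIzol, and 2 rounds of T7 amplification preceded hybridization. The deposited values are intensity on a linear scale, 1 per probe set and array. Per the submitters' processing notes they came from GCOS, the Affymetrix array software; its version, algorithm and scaling target are not given in the sources used here. Trimmed means of the arrays lay between 500.2 and 500.3 and their medians between 112.2 and 144.8. Precision is limited by having 3 arrays per structure, since intensity carries no read depth.

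Of 22690 probe sets, 64 controls were left out, and the platform annotation of 2016 gave exactly 1 symbol to 20380 of the rest, several to 691 and none to 1555. Symbols of all 10 members and all 63 pathway genes on the array were equal in RefSeq. Before log2, 26 was added to every value as a pseudocount (the 20th percentile over the table). It shrinks the differences of dim probe sets. Array medians then differed by 0.31, above the limit of 0.25, which led to quantile normalization. The 12588 probe sets that exceeded their array's median in at least 3 of 9 arrays entered a two-sided limma test (version 3.58.1, R 4.3.3; lmFit, eBayes with an intensity trend, all 9 arrays, 6 residual degrees of freedom, no covariates), with Benjamini-Hochberg adjustment within each of 3 comparisons. The procedure was tested on simulated data. Pathway and marker genes were represented by their brightest probe set.

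The rule for naming genes took all members, the pathway genes called in any comparison and the 3 genes most correlated with each member. Members and lists were chosen with earlier results of these data known. Alternatives were other pseudocounts, normalizations, filters and probe set choices, no intensity trend, array weights, a 2-fold minimum, a replicate block, fits restricted to 2 structures and each array left out in turn, and, chosen after seeing the data, 2 arrays left out together. P-values set each difference against the spread between these samples. Whether the collecting duct samples came from separate embryos is not stated.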

Additional observations from a re-analysis of the deposited data

How the results depend on the processing

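With array weights, 7516 probe sets were called between renal vesicle and collecting duct and 6878 between s-shaped body and collecting duct, against 3570 and 3601 in the analysis as reported, and 8 member probe sets were called between renal vesicle and collecting duct. This fit stopped before it converged. Under a 2-fold minimum, 1997 probe sets were called between s-shaped body and collecting duct, 1695 between renal vesicle and collecting duct and 2024 between s-shaped body and renal vesicle. The same minimum left 2 member probe sets between renal vesicle and collecting duct and 2 between s-shaped body and renal vesicle, and 8, 10 and 7 pathway genes in the order of comparisons just given. A filter of 6 arrays left 11 pathway genes between renal vesicle and collecting duct, since fewer genes were tested. Without renal vesicle replicate 3 and collecting duct replicate 2 together, 1971 probe sets and 9 pathway genes were called between them. Leaving out 1 array at a time gave 2492 to 3711, 2496 to 3557 and 2992 to 5012 probe sets in the same order, with 4 to 6, 3 to 4 and 4 to 4 member probe sets and 15 to 17, 12 to 16 and 12 to 16 pathway genes. Median centring called 2365 probe sets higher and 1412 lower between renal vesicle and collecting duct, 62.6% higher against 52.3% as reported, and moved the median of all probe sets there to 0.12.

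The member differences that changed sign had not passed the test as reported, and the cause was not tested. Spry1 between renal vesicle and collecting duct was 0.066 with median centring, -0.27 to 0.12 with 1 array left out, the highest without renal vesicle replicate 3, and 0.22 without both arrays named above. Spry2 1421656_at between s-shaped body and renal vesicle was 0.070 with no further normalization and -0.17 to 0.026 with 1 array left out, the highest without s-shaped body replicate 3. Fgf9 with array weights was 0.0070 between s-shaped body and collecting duct and 0.31 between renal vesicle and collecting duct. Dusp6 between s-shaped body and renal vesicle was -0.45 to 0.047 with 1 array left out, the highest without renal vesicle replicate 2, and 0.028 without s-shaped body replicate 2. The calls of Fgfr2 1433489_s_at and Spry1, of Fgfr1 against collecting duct, and of Fgfr3 between s-shaped body and collecting duct held in all 22 alternatives. Those of Fgfr1 between s-shaped body and renal vesicle and of Fgfr3 between renal vesicle and collecting duct and between s-shaped body and renal vesicle were lost only under the 2-fold minimum.

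Same-numbered arrays of different structures had deviations correlated by -0.06 to 0.16, and differently numbered ones by -0.14 to 0.16. These overlapping ranges do not decide whether the numbers pair the samples. With the replicate block, 3619, 3674 and 4339 probe sets were called in the same order of comparisons, with 6, 4 and 4 member probe sets and 18, 14 and 14 pathway genes. Under the block the Spry2 1436584_at call was lost (adjusted p = 0.072) and Fgfr2 1420847_a_at passed (adjusted p = 0.031).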
